A study of Homo sapiens with 11 samples.

Results

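Immediate early genes and MYC were examined in HK2 cells as a set of 10 genes taken by name, FOS, FOSB, FOSL1, JUN, JUNB, ATF3, EGR1, IER2, IER3 and MYC. All 10 were found among the 19645 protein-coding genes of the RNA-seq files. The set was put together with the RNA-seq values known, MYC and IER2 because their FPKM differed between the libraries, so their ratios below are a description. FPKM counts fragments per kilobase of transcript, scaled to all mapped fragments of a library, and it was summed over the transcripts of a gene in each library.

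HK2 is an immortalised line of proximal tubule epithelial cells from a human kidney. The cells were cultured in DMEM-F12 with 10% FBS, 1% penicillin-streptomycin and 0.05% DMSO, which every sample shared, and there was 1 condition. RNA was taken in Trizol for 2 RNA-seq libraries, and cells fixed with 1% formaldehyde gave 2 ChIP-seq replicates each of H3K4me3, a mark of promoters, H3K27ac, a mark of active promoters and enhancers, and H3K27me3, a mark of Polycomb repression. The input and HiChIP samples were not used here. Nothing in the sources says whether the libraries came from separate cultures, so the spread between them may be technical. Aligned bases came to 5.67 and 5.52 Gb in RNA-seq libraries 1 and 2. Of 10 proximal tubule markers, 3 reached an FPKM of 1 in both libraries, led by GGT1 at 64.1 and 58.1, while LRP2, SLC22A6 and SLC22A8 were listed at 0 in both. The summed FPKM of these markers was 74.7 and 68.8. Of 5 epithelial markers, 4 reached an FPKM of 1, with a sum of 410 and 393. Of 17 markers of podocytes, loop and distal tubule, endothelium, leukocytes and fibroblasts, PODXL, CD68 and COL1A1 did so, while PTPRC and CD3E of leukocytes were listed at 0. All 13 mitochondrially encoded genes were listed at 0 in both libraries, so they gave no measure of RNA quality.

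Immediate early genes are transcribed within minutes of a stimulus such as serum or a growth factor, from promoters that kinase cascades reach without new protein synthesis, and their messages are as a rule short-lived. FOS and JUN family proteins pair through a leucine zipper to form AP-1, ATF3 is a stress-responsive member of the same bZIP class, and EGR1 is a zinc finger factor. IER2 and IER3 are small proteins of the early response, and MYC pairs with MAX to bind E-boxes at genes of growth and ribosome production. In the kidney tubule, this response is known from injury and repair.

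The RefSeq promoter of a gene, 250 bases before to 50 bases after its start, was available for 7 of the 10 genes, with 2 entries for ATF3. The 5 shown here carry the motifs for which immediate early promoters are known or, for IER2, stand at the start of the gene that differed most between the libraries. They are given 5′ to 3′ on the plus strand, with GRCh38.p14 positions, and capitals mark every match of the motifs named below.
FOS, chr14:75278578-75278877, plus strand: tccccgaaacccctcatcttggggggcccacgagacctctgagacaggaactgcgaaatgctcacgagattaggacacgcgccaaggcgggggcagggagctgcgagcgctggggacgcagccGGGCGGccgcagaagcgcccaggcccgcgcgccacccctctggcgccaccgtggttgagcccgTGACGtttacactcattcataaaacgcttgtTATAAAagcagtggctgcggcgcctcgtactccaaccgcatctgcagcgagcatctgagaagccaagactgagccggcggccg
FOSB, chr19:45467746-45468045, plus strand: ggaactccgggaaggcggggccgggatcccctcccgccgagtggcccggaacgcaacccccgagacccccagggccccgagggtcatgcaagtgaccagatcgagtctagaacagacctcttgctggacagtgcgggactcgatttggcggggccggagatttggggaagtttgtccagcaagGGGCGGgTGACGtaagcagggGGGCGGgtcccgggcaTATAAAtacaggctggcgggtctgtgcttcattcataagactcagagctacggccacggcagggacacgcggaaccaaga
JUNB, chr19:12791236-12791535, plus strand: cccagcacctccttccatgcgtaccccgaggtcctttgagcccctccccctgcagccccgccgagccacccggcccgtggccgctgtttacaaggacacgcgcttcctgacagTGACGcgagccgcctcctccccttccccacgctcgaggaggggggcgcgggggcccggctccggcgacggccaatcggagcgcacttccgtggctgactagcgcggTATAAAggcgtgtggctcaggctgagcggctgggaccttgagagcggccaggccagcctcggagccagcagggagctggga
EGR1, chr5:138465229-138465528, plus strand: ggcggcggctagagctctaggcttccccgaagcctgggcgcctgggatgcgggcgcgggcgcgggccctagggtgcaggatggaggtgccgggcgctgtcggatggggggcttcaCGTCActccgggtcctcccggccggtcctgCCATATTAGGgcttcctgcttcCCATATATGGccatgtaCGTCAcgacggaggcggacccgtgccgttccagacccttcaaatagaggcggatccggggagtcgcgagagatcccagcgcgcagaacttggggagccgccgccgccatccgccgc
IER2, chr19:13150161-13150460, plus strand: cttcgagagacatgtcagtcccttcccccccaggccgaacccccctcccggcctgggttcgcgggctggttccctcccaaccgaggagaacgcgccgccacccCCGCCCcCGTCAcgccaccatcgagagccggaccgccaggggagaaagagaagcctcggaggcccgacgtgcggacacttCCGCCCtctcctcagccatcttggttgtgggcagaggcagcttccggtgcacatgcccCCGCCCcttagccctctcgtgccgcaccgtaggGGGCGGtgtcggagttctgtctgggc
EGR1 had the serum response motif, the CArG box to which serum response factor binds, at 2 places, from -105 to -96 and from -83 to -74 relative to the start, where -1 is the base before it. It was the only 1 of the 8 member promoters with a CArG box, against 1.26% of 21578 promoters of coding genes of the same length. A TATA box, TATAAA, stood from -33 to -28 in FOS, from -30 to -25 in FOSB and from -31 to -26 in JUNB. In ATF3 it was found from -230 to -225 of the downstream entry, far from the usual place of a TATA box. These were 4 of the 8 member promoters, against 9.43% of all. The core of the cAMP response element, TGACG, was present in 6 of the 8, those of FOS, FOSB, JUN, JUNB, EGR1 and IER2, against 28% of all. The full element TGACGTCA, which contains that core, was in 0 of the 8 and in 2.28% of all, and the AP-1 site TGANTCA in 0 of the 8 and in 6.17%. The GC box GGGCGG, bound by SP1, was in 5 of the 8 and in 56.8% of all, and IER2 held 4 copies and no TATA box. Both strands were searched, and in JUN a core element and a GC box share a base. A match of letters is a description of the window and not a measured site. Variants of these letters, and sites outside the window, were not counted. The members' promoters ranged from 46.3% GC in ATF3 to 71.0% in JUNB, with a median of 62.3% over all promoters. Each of the 8 windows was found once in GRCh37, the build of the peaks, which allowed the marks on these bases to be read.

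The levels of the members spanned 2 orders of magnitude. By the mean of the 2 libraries, IER3 was highest, JUN and JUNB followed, and FOS and FOSB were lowest, although in library 2 MYC was above JUNB and IER2 was below FOS and FOSB. All 10 genes reached an FPKM of 1 in both libraries, as did 58.8% of all protein-coding genes. The median over the members was an FPKM of 17.3 against 3.32 over all coding genes, and 8 of the 10 lay above the latter. Since the genes were chosen by name with these values known, nothing is read from that share.

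Among the 3 FOS genes of the set, FOSL1, which encodes FRA1, was highest. Its FPKM was 25.2 in library 1 and 23.4 in library 2, or 24.3 ± 1.23 (SD, n = 2), the 85.5th percentile of coding genes. FOS was at 2.27 and 2.41 (2.34 ± 0.10), and FOSB at 1.56 and 1.32 (1.44 ± 0.167). These 3 genes did not overlap, and FOSL1 was above the other two in both libraries. FOS and FOSB rested on few reads, 18.2 and 22.7 kb of aligned sequence for FOS and 26.2 and 18.3 kb for FOSB, so their transcripts are poorly resolved. In FOSB, 9 of 13 annotated transcripts were above 0 in library 2 and none held more than 21.4% of the gene in either library. The FOSL1 transcript ENST00000312562.6 held 51.8 and 53.9% of the gene.

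JUN, the partner of the FOS proteins in AP-1, reached an FPKM of 89.7 and 85.1 (87.4 ± 3.31), the 97.1st percentile. JUNB, a JUN relative with weaker activating capacity, was at 48.5 and 45.4 (47.0 ± 2.17). JUN was above JUNB in both libraries, and both have 1 annotated transcript of 1 exon, so no choice of transcript entered their values. ATF3 was at 5.29 and 6.21 (5.75 ± 0.646). EGR1 was at 9.37 and 8.45 (8.91 ± 0.650), above ATF3 in each library. JUNB lies opposite HOOK2, which was at an FPKM of 10.3 and 8.32, and FOSB opposite ERCC1, at 19.6 and 18.2. The use of strand in counting is not given in the sources used here, so reads of these partners cannot be told apart where they overlap.

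IER3, a regulator of survival and apoptosis, had the highest level of the set, 155 and 134 (145 ± 15.1), rank 303 of 19645. The total differed little, but the shares assigned to its transcripts differed. These transcripts, of 1244 and 1350 bases, lie in 1 exonic block of 1356 bases, and reads across the splice were not examined. The spliced ENST00000259874.5 was at 123 and 65.0, or 79.2 and 48.5% of the gene, and the unspliced ENST00000376377.2 at 32.4 and 68.9, or 20.8 and 51.5%. IER2 and MYC are described next, since they were the members whose libraries lay apart.

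**Figure D1:**
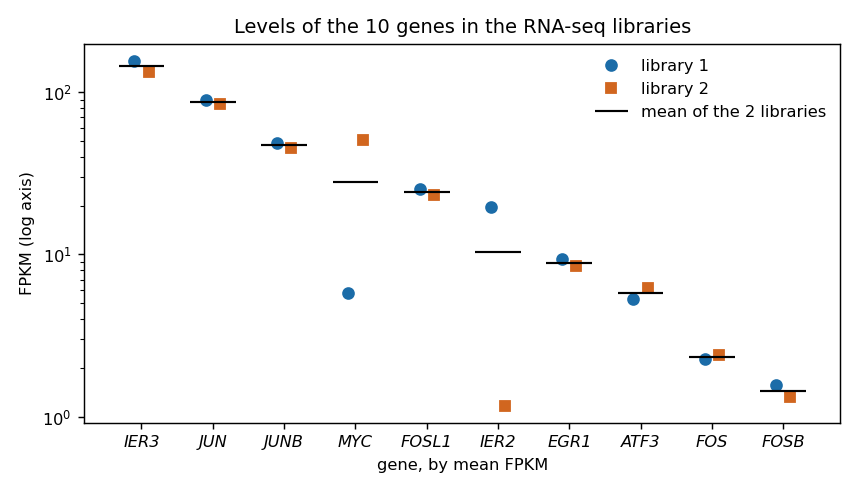
FPKM of each gene (log axis) in RNA-seq library 1 (circles) and library 2 (squares), with the mean of the 2 libraries as a bar. The points lie close together for 8 genes, while MYC spans 5.75 to 50.4 and IER2 spans 1.17 to 19.6.

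In order of the mean, the genes ran IER3, JUN, JUNB, MYC, FOSL1, IER2, EGR1, ATF3, FOS and FOSB. The ranges of JUNB and MYC, of MYC and FOSL1, and of IER2 and EGR1 overlapped, so the order of these neighbours is not set by the data. The other neighbours did not overlap over the 2 libraries, while the range of IER2 also took in ATF3, FOS and FOSB, and the value of MYC in library 1 fell among those of ATF3.

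MYC was at an FPKM of 5.75 in library 1 and 50.4 in library 2, an 8.78-fold difference. The values rested on 36.5 and 417 kb of aligned sequence. On the log2(FPKM + 1) scale, the ratio of library 2 to library 1 was 2.93. The difference was uneven along the gene. In the first of 3 exonic blocks, the mean coverage summed over transcripts was 10.1 reads per base in library 1 and 19.0 in library 2. It was 21.6 and 142 in the second block and 7.45 and 274 in the third. By these means, library 2 was thus higher in all 3 blocks, least in the 5′ block and most in the 3′ block. Within the blocks, library 1 was the higher one in short stretches. Bases 651 to 786 of the gene had 5.94 and 3.48 reads per base, and bases 5940 to 6001 had 1.59 and 1.39. Of 9 annotated transcripts, ENST00000613283.2 held 22.0% of the gene in library 1 and 74.5% in library 2, at an FPKM of 1.27 and 37.6. ENST00000524013.1 was at 0.533 and 9.96. The short ENST00000520751.1, of 577 bases, went the other way, at 2.97 and 1.65, and held 51.8% of the gene in library 1.

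IER2 was at an FPKM of 19.6 in library 1 and 1.17 in library 2, a 16.8-fold difference in the opposite direction to MYC, on 326 and 18.2 kb of aligned sequence. The log2 ratio was -3.25. Nearly all of it lay in ENST00000588173.1, of 1 exon and 2934 bases, at 19.6 and 1.02. The mean coverage of its block was 111 reads per base in library 1 and 6.16 in library 2. The 5′ block, of 138 bases, had 1.76 and 1.01. The promoter printed above lies at this 5′ block, while the long block begins at base 1561 of the gene. A gene on the opposite strand, AC011446.2, was at 0.0684 and 0.55.

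**Figure D2:**
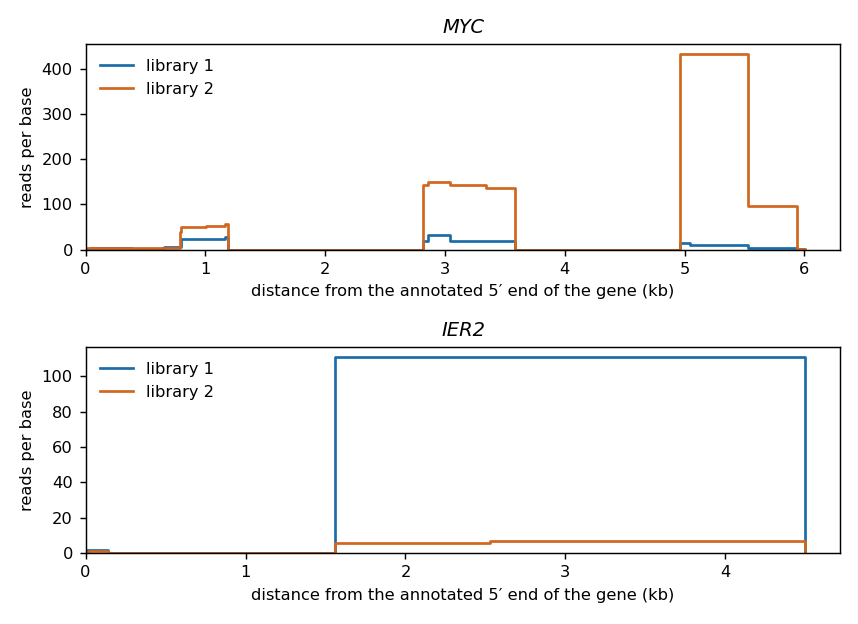
Coverage in reads per base, summed over the annotated transcripts of MYC (top) and IER2 (bottom), against the distance in kb from the 5′ end of the gene, in library 1 (blue) and library 2 (orange). By mean coverage, library 2 is the higher one in every exonic block of MYC, and library 1 in the long block of IER2.

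For the other 8 genes, the log2 ratio of library 2 to library 1 ran from -0.21 in IER3 to 0.20 in ATF3. It was positive in ATF3 and FOS and negative in the other 6. A ratio of this size or less was found in 77.3% of the 8732 coding genes whose mean FPKM was 5 or more. Over those 8732 genes, the ratios had a median of 0.00 and an SD of 0.26, and over the 10 members the median was -0.10. A difference of more than 1.5-fold was called higher in library 2 for 1 member, MYC, and for 1.78% of those coding genes, and lower for 1 member, IER2, and for 1.44%. The contrast that chose these genes is the one counted here, and nothing is read from it. Among the 8732 genes, 2 had a ratio above that of MYC and 2 a ratio below that of IER2. With 2 libraries of 1 condition, no test was made.

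**Figure D3:**
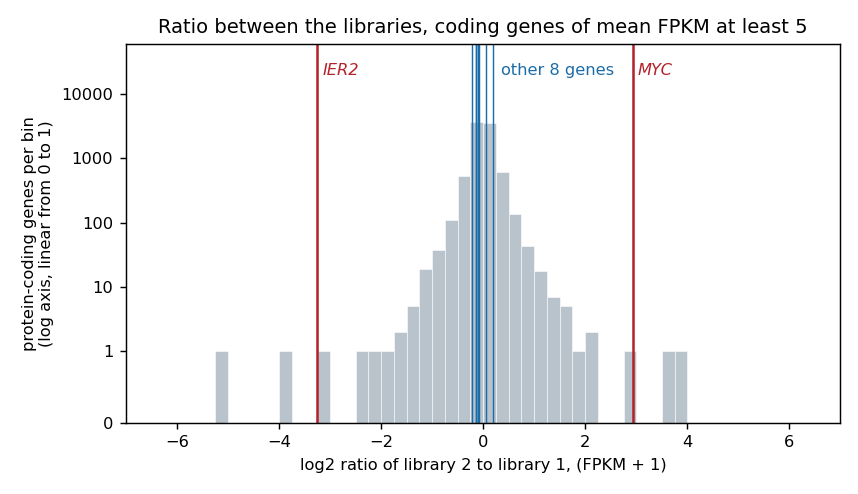
Number of protein-coding genes of mean FPKM at least 5 (vertical axis, log scale above 1) by log2 ratio of library 2 to library 1 in bins of 0.25. Red lines mark MYC at 2.93 and IER2 at -3.25, and blue lines the other 8 genes, from -0.21 to 0.20.

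The coding genes closest to MYC in both libraries, by Euclidean distance in log2(FPKM + 1), were RHNO1 at an FPKM of 8.79 and 29.9 (distance 0.911), GABARAPL1 at 9.97 and 31.0 (0.980) and DAG1 at 4.98 and 25.1 (0.993). Those closest to IER2 were AC004080.3 at 20.6 and 0.579 (0.463), PDXP at 17.7 and 3.59 (1.09) and PLLP at 11.6 and 3.10 (1.16). This likeness rests on 2 libraries.

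Few genes of the surrounding pathways were beyond 1.5-fold between the libraries. Of 30 other AP-1 and bZIP factors, 26 reached an FPKM of 1 in both libraries. At a mean of 5 or more there were 24, with 0 beyond 1.5-fold in favour of library 2 and 1 in favour of library 1. The latter was MAFG, a small MAF protein, at 13.8 and 8.68, and the highest gene was ATF4, the factor of the integrated stress response, at 163 and 160. Of 40 other immediate early and serum response genes, 31 reached an FPKM of 1. Of the 24 with a mean of at least 5, 0 were higher and 2 lower, among them GADD45B, a stress sensor, at 42.3 and 25.9. CYR61, a matricellular protein induced by serum, led that list at 814 and 790, above every member of the set. Their median log2 ratios were -0.02 and -0.03.

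Of 25 kinases and factors upstream of the early response, all 25 reached an FPKM of 1. MAPK14, which encodes p38 alpha, was higher in library 2, at 12.2 and 25.9, the only one of 23 beyond 1.5-fold, and JAK1 led the list at 97.2 and 102. Of 17 partners and antagonists of MYC, 0 of 13 were beyond 1.5-fold in either direction, and AURKA, whose protein stabilises MYC family members, led at 67.5 and 69.4. MYC targets of the nucleolus, ribosome production and metabolism were represented by 29 genes. Of the 28 with a mean of at least 5, 0 were higher in library 2 and 1 lower, MYBBP1A at 31.3 and 18.0. Their median log2 ratio was -0.04, while MYC itself was at 2.93, and NPM1, a nucleolar chaperone, led at 320 and 378. Of 16 stress and heat shock genes at that level, 1 was lower, TRIB3 at 37.6 and 24.3, with HSPA8 highest at 930 and 832. Of 23 cell cycle genes, 1 was lower, RRM2 at 49.6 and 31.2, with PCNA highest at 277 and 287. The lists were compiled with earlier results of these data known, and their counts stand beside 1.78 and 1.44% of coding genes.

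At the promoters, the marks of activity were present throughout the set. An H3K4me3 peak lay within 1 kb of an annotated transcription start site (TSS) in both replicates for 10 of 10 genes, against 70.3% of all coding genes and 97.3% of those expressed, that is, at an FPKM of 1 or more in each library. An H3K27ac peak lay there in both replicates for 10 of 10, against 55.0 and 84.6%. With the canonical TSS alone, the H3K27ac count was 9 of 10, since FOSB had no such peak in replicate 2. An H3K27me3 peak lay within 1 kb of an annotated TSS in both replicates for ATF3 alone. This was 1 of 10, against 11.4% of coding genes and 337 of the 11549 expressed ones. Peaks were called replicate by replicate, and their positions were deposited without heights, so the depth behind a peak is unknown. The replicates differed in the peaks called. Median widths were 1357 and 657 bp in H3K27ac replicates 1 and 2, and 97.4% of the peaks of replicate 2 overlapped one of replicate 1, while 44.1% of those of replicate 1 overlapped one of replicate 2. For H3K4me3 these shares were 58.9% of replicate 1 and 24.5% of replicate 2.

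H3K4me3 covered all of the 2001 bp around the canonical TSS in both replicates at JUNB, ATF3, EGR1, IER2 and MYC. The least covered were IER3, with 1417 and 1018 bp in replicates 1 and 2, and FOSL1, with 1608 and 1086 bp. The median over the members was 2001 bp in each replicate, against 1843 and 1396 bp over expressed coding genes. The widest H3K4me3 peaks were those of MYC, 6584 and 5567 bp. MYC and IER2, the genes that differed in RNA between the libraries, both had full H3K4me3 cover of this window, and neither had an H3K27me3 peak within 1 kb. For IER2, the window ends before the long block in which the libraries differed. Separate H3K4me3 peaks of 4354 and 3762 bp began 1507 and 1470 bp downstream of its canonical TSS. No label ties a ChIP-seq replicate to an RNA-seq library.

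H3K27ac was more variable. In replicate 1 it covered the whole window at FOSL1, JUN, JUNB, ATF3, IER3 and MYC and 1981 bp at IER2, and the least at EGR1, 1038 bp. In replicate 2 the cover ranged from 0 bp at FOSB and 423 bp at FOS to 1684 bp at JUN. Replicate 2 was below replicate 1 for all 10 genes. This drop was not particular to the set. The median cover was 2001 and 1065 bp over the members, against 1711 and 857 bp over expressed coding genes. EGR1 and FOS, together with FOSB, were the least covered members in replicate 2, with 478 bp at EGR1. The nearest H3K27ac peak of replicate 2 began 1464 bp downstream of the canonical FOSB TSS, within reach of another annotated TSS, and ended 523 bp upstream of the EGR1 TSS. In replicate 1 the widest peak at a promoter was 18149 bp at FOSL1, followed by 15092 bp at JUNB and 10076 bp at MYC.

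**Figure D4:**
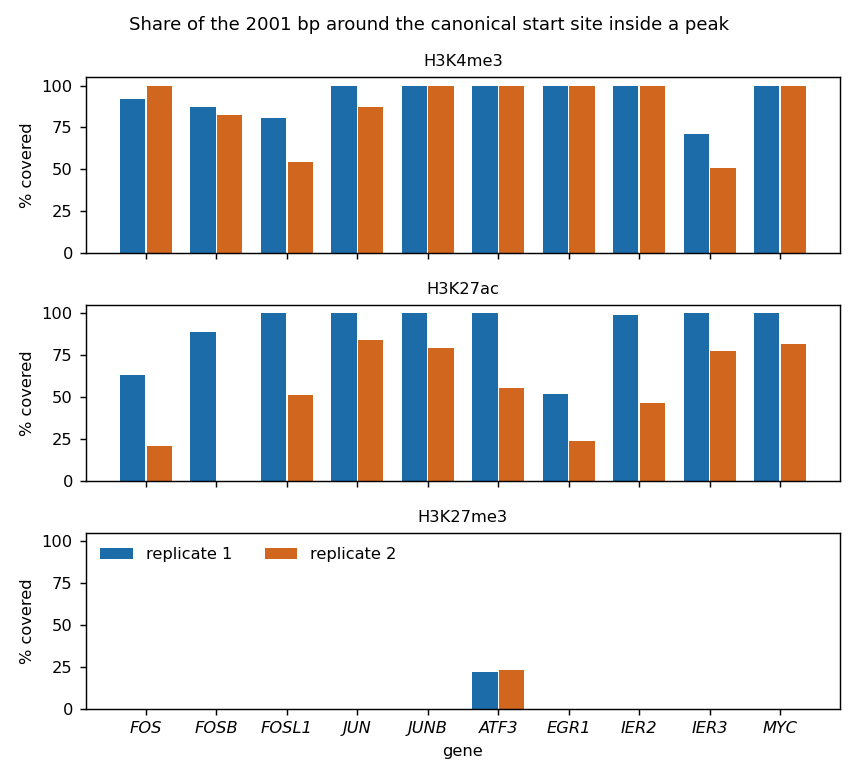
Percent of the 2001 bp around the canonical TSS that lies inside a peak (vertical axis) for each gene, in replicate 1 (blue) and replicate 2 (orange) of H3K4me3, H3K27ac and H3K27me3. H3K4me3 bars lie between 50.9 and 100%, H3K27ac bars are lower in replicate 2, and H3K27me3 is seen at ATF3 alone.

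On the promoter bases printed above, H3K4me3 covered 300 of 300 bases in both replicates at FOS, FOSB, JUNB, EGR1 and IER2. H3K27ac replicate 1 covered 300 bases at FOS, FOSB, JUNB and IER2 and 288 at EGR1. In replicate 2 it covered 300 bases at FOS, 29 at IER2 and 0 at FOSB, JUNB and EGR1. At EGR1, therefore, both CArG boxes lay in H3K27ac replicate 1 and outside the peaks of replicate 2. At JUNB, the replicate 2 peaks stood on either side, ending 320 bp before the TSS and beginning 90 bp after it. At JUN, H3K4me3 covered 300 and 48 bases of the RefSeq window and H3K27ac 300 and 8.

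ATF3 was the 1 member with H3K27me3 near a TSS. Its 7 annotated TSSs extend over 49844 bp on chromosome 1 (GRCh37, 212738676 to 212794119, plus strand). Both RefSeq entries of ATF3 had 0 bases in a peak of any mark. The peaks stood instead at the canonical TSS between them, where H3K4me3 peaks of 3228 and 3040 bp and H3K27ac peaks of up to 2397 and 760 bp lay. There an H3K27me3 peak of 8424 bp in replicate 1 ended 562 bp upstream of the TSS, and one of 6586 bp in replicate 2 ended 533 bp upstream. H3K27me3 covered 439 and 468 of the 2001 bp. All of these bases lay under the same H3K4me3 peaks, which covered the whole window in both replicates. In the RNA, the first of 5 exonic blocks, 5′ to 3′, had a coverage of 0 in both libraries, and the second 3.05 and 25.3 reads per base. The block before the last had 7.90 and 38.6, and the last and longest 17.3 and 16.0. Library 2 was higher in the blocks between the first and the last, and library 1 in the last, while the gene total differed by 1.17-fold. Around its TSSs, within 50 kb, both lists together held 43 H3K27me3 peaks, over a wider stretch than for the other genes. FOS had 12 such peaks, MYC 8, EGR1 2, FOSL1 and JUN 1 each, and FOSB, JUNB, IER2 and IER3 had 0.

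Beyond the members' own promoters, H3K27ac peaks at 1 to 50 kb from a TSS were shared by both replicates, by an overlap of at least 1 bp, for 9 of 10 genes. This compares with 69.1% of coding genes and 79.8% of expressed ones. Peaks at the promoters of other genes are included in these counts and in the lengths below. Restricted to peaks over 1 kb from every annotated TSS, the member count was 7 of 10, and the shares of coding genes were not recomputed. Summed over all distal H3K27ac peaks of a gene, shared or not, the length had a median over the members of 7.66 kb in replicate 1 and 6.45 kb in replicate 2, against 6.43 and 2.09 kb over expressed coding genes.

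IER3, on chromosome 6 (30710976 to 30712325, minus strand), had the greatest summed length of the set in both replicates. Its 7 peaks of replicate 1 added up to 48.2 kb and its 16 peaks of replicate 2 to 33.4 kb, more than in 99.5 and 99.9% of coding genes. A peak of 24.5 kb in replicate 1 began 2978 bp upstream of its TSS, and 8 peaks of replicate 2 lay within the same stretch. IER3 has 3 other coding genes with a TSS within 50 kb, and it was the nearest coding gene to 3 of the 7 and 11 of the 16 peaks. Of the 7 and 16 peaks, 4 and 9 lay over 1 kb from any annotated TSS. IER3 was also the member with the highest FPKM, but the order did not hold across the set. FOSB, the lowest by mean FPKM, had more summed length in replicate 1 than every member but IER3. A link between this length and the FPKM was not tested. FOSB had 13 and 8 peaks, 22.0 and 10.4 kb, of which 7 of replicate 1 were shared. FOSB has 4 other coding genes with a TSS within 50 kb, and none of its distal peaks was nearest to FOSB itself. FOSL1 had 18.6 and 18.5 kb, with 9 other coding genes around it, and IER2 had 17.2 and 11.6 kb. Of the FOSL1 peaks, 0 of replicate 1 and 1 of replicate 2 lay over 1 kb from any annotated TSS.

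MYC, on chromosome 8 (128747680 to 128755197, plus strand), had the smallest summed length in both replicates. There was 1 distal peak in each replicate, of 316 bp at 24500 bp downstream of the canonical TSS in replicate 1 and of 273 bp at 7039 bp in replicate 2, and they did not overlap. The latter lay inside the 10076 bp promoter peak of replicate 1. No other coding gene has a TSS within 50 kb of it. EGR1 had 2 peaks in each replicate, 0.727 and 1.15 kb in all, with 1 shared, 3.41 kb upstream of the TSS. FOS had 4 peaks of replicate 1, all of them shared, in a stretch with no other coding TSS, the closest 14600 bp downstream of the canonical TSS. JUN had 2 shared peaks, 27363 bp downstream and 30276 bp upstream, also with no other coding TSS within 50 kb. For MYC, EGR1, FOS and JUN, the member was the nearest coding gene to each of these distal peaks. For FOSB, FOSL1 and JUNB, another coding gene was nearer to every shared distal peak.

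**Figure D5:**
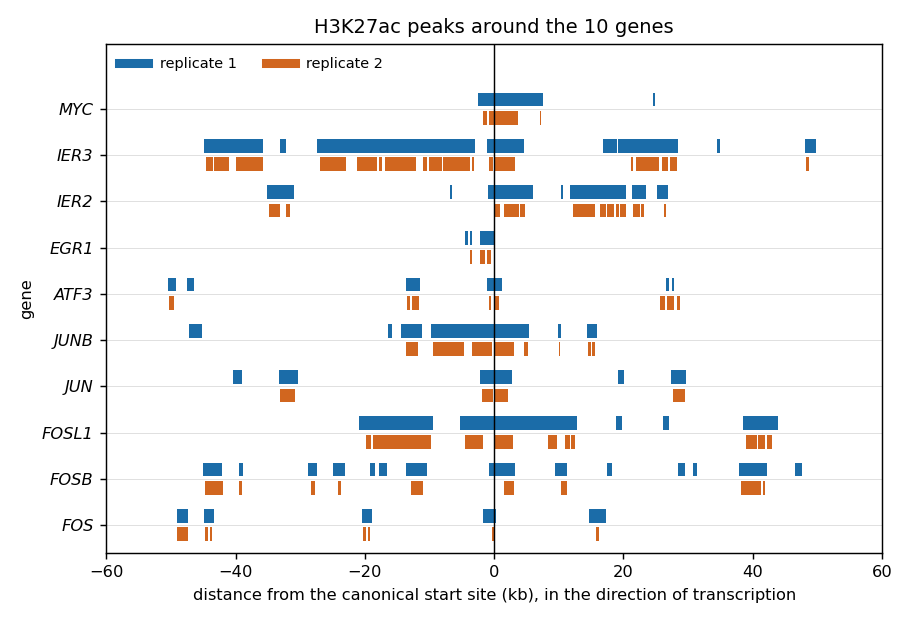
H3K27ac peaks of replicate 1 (blue) and replicate 2 (orange) around each gene, against the distance in kb from the canonical TSS in the direction of transcription (vertical line at 0). IER3, FOSB, FOSL1 and IER2 have the greatest summed length of distal peaks in both replicates, and MYC has 1 distal peak in each replicate.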

How the data were processed

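For ChIP-seq, the authors mapped reads with Bowtie2 (hg19) and used MACS2 for peaks, replicate by replicate. The deposited lists hold 3 fields per peak. For RNA-seq, HISAT2 and StringTie 1.3.3 with GENCODE 27 were used, and the FPKM deposited by the authors were summed per gene. The transcript coordinates belong to GRCh38, and genes were therefore matched by Ensembl identifier with GENCODE 44 on GRCh37, which gave TSSs and gene types. Sequences came from RefSeq promoters. Ratios were log2 of FPKM with a pseudocount of 1, computed across all genes with Python 3.11.15, pandas and numpy, after the functions had been tested on simulated data. Peaks counted within 1 kb of any TSS or at 1 to 50 kb. With 1 condition and 2 libraries, no test was made.

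The members and gene lists were chosen with earlier results of these data known. Every member is named, as are the highest gene of each list, each list gene of mean FPKM of at least 5 beyond 1.5-fold, and the 3 genes nearest to MYC and to IER2. Other genes on chromosome 8 were counted and not named. Alternatives covered unit, floor, pseudocount, scaling, fold, transcripts, replicates, TSS set, window and distance.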

Additional observations from a re-analysis of the deposited data

How the results depend on the processing

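Of 49 alternative values of the 8 counts and medians, 48 stayed near the reported value, by the limit of 1.5 times for a count or 1 SD of the coding genes' ratios for the median. Several of these could not move. A count of 10 of 10 in both replicates stays at 10 with a single replicate, either replicate or a wider window. The limit also passed a fall from 10 to 7 members with an FPKM floor of 5, and the fall from 9 to 6 given below. The share of 48 is therefore no measure of robustness. With only the top transcript of each gene, 2 members in place of 1 were over 1.5-fold lower in library 2, since IER3 joined IER2 with a log2 ratio of -0.91 for its top transcript. The ratio of MYC ran from 2.37 with a pseudocount of 5 to 4.09 with its top transcript, and that of IER2 from -1.995 with a pseudocount of 5 to -3.96 with one of 0.1. Without H3K27ac replicate 1 or replicate 2, the count of members with a distal peak was 10. Restricted to peaks nearest to the member's own TSS, this count was 6, and restricted to peaks over 1 kb from every TSS it was 7. No paired analysis was possible because there was 1 condition. The FPKM of FOS and FOSB rests on few aligned bases, and the depth behind single peaks is unknown.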
